A study of Mus musculus with 6 samples.

Results

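The 49 genes described here are the mouse protein-coding genes whose symbol begins with Cfap or Dnah followed by a number, which name proteins of the ciliary axoneme. They comprise 34 Cfap genes, for cilia and flagella associated proteins, and 15 Dnah genes, for axonemal dynein heavy chains. They were found by symbol among the 47728 genes of the deposited count table, 46 through GENCODE symbols and 3 (Cfap410, Cfap20dc and Cfap47) through RefSeq symbols only, and 1 antisense gene with a matching symbol, Dnah2os, was left out. RNA sequencing of flash frozen cerebral cortex covered 3 libraries of FAD5x mice and 3 libraries of C57BL/6 mice, called Control. FAD5x mice, a transgenic Alzheimer model, carry mutant human genes, and the labels give no construct, promoter, age or sex for either group. The only comparison of the design was FAD5x over Control, and since no label ties a library to its own animal, p-values reflect only the spread among the libraries at hand, which may be technical. The library names of FAD5x replicates 1 and 2 differ only by a suffix, and whether these 2 libraries came from separate animals is not stated. Members were taken by symbol alone, but the set as such was selected on the FAD5x over Control differences of these same counts, so its calls and fold changes are a description, given without p-values.

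Motile cilia and sperm flagella beat by means of an axoneme, a ring of doublet microtubules around a central pair that carries projections known as the central apparatus. Outer and inner dynein arms on the doublets hold the heavy chains that hydrolyse ATP and slide the doublets, and radial spokes and the nexin link pass control from the centre to the arms. In brain the main cells with beating cilia are the ependymal cells that line the ventricles, whereas cortical neurons and astrocytes carry a primary cilium that lacks dynein arms and a central pair. In bulk tissue fewer cells of a type and less RNA per cell cannot be told apart.

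Total counts ranged from 17972967 to 24137936 in FAD5x libraries and from 17363946 to 18188112 in Control libraries. Cortical neuron transcripts were present in every library: Slc17a7, the cortical glutamate transporter, was at 1047 to 1676 counts per 1000000 (CPM) in FAD5x and at 1016 to 1505 CPM in Control. Control replicate 1 stood apart with 3 counts of Xist, the RNA of the inactive X chromosome, and 3124 counts in 4 Y-linked genes, whereas Xist counts were 10346 to 22631 and Y-linked counts at most 9 in the other 5 libraries. FAD5x replicate 1 stood apart with 1885 CPM summed over 10 striatal neuron markers, against 317 and 275 CPM in FAD5x replicates 2 and 3 and 234 to 330.3 CPM in Control libraries.

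Cfap54 and Cfap46, which encode large subunits of the same projection of the central apparatus, were about 3- to 4-fold higher in FAD5x than in Control cortex, and no other Cfap or Dnah gene passed the threshold in either direction. Among the heavy chains, Dnah7b was lower in every FAD5x library than in any Control library, Dnah3 was higher in every FAD5x library at very low counts, and Dnah11 ran from 0 to 373 counts within the FAD5x libraries. Cfap36, Cfap20 and Cfap97, which were among the most abundant of the set per kilobase of exon, had nearly equal levels in both groups. Cfap298, which ranked between Cfap36 and Cfap20 per kilobase, was higher in every FAD5x library than in any Control library, at 1.485-fold, and was not called.

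A total of 40 of the 49 genes passed the filter on low counts and entered the edgeR quasi-likelihood fit over 17074 genes. Calls were set at p below 0.05 after Benjamini-Hochberg adjustment: 2 were called higher, where 1.76% of all tested genes were, and 0 were called lower, where 1.39% of all tested genes were. At an unadjusted p below 0.05 the numbers were 4 higher and 2 lower, beside 11.2% and 10.1% of all tested genes. DESeq2 called 2 higher and 1 lower, beside 4.47% and 4.23% of all tested genes, and limma-voom called 2 higher and 0 lower, beside 1.45% and 1.32%. The FAD5x and Control libraries did not overlap for 10 of the 40 genes, 7 higher and 3 lower, where 14.1% and 13.2% of all tested genes did not overlap in those directions. Over the 40 genes the median log2 fold change was 0.27, and over all tested genes 0.02, with 27 genes above 0, 13 below, and a range of -1.82 to 1.97. Summed over all 49 genes, the level was 327, 347.5 and 380.1 CPM in FAD5x replicates 1 to 3, against 329.8, 324 and 328 CPM in Control replicates 1 to 3.

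**Figure D1:**
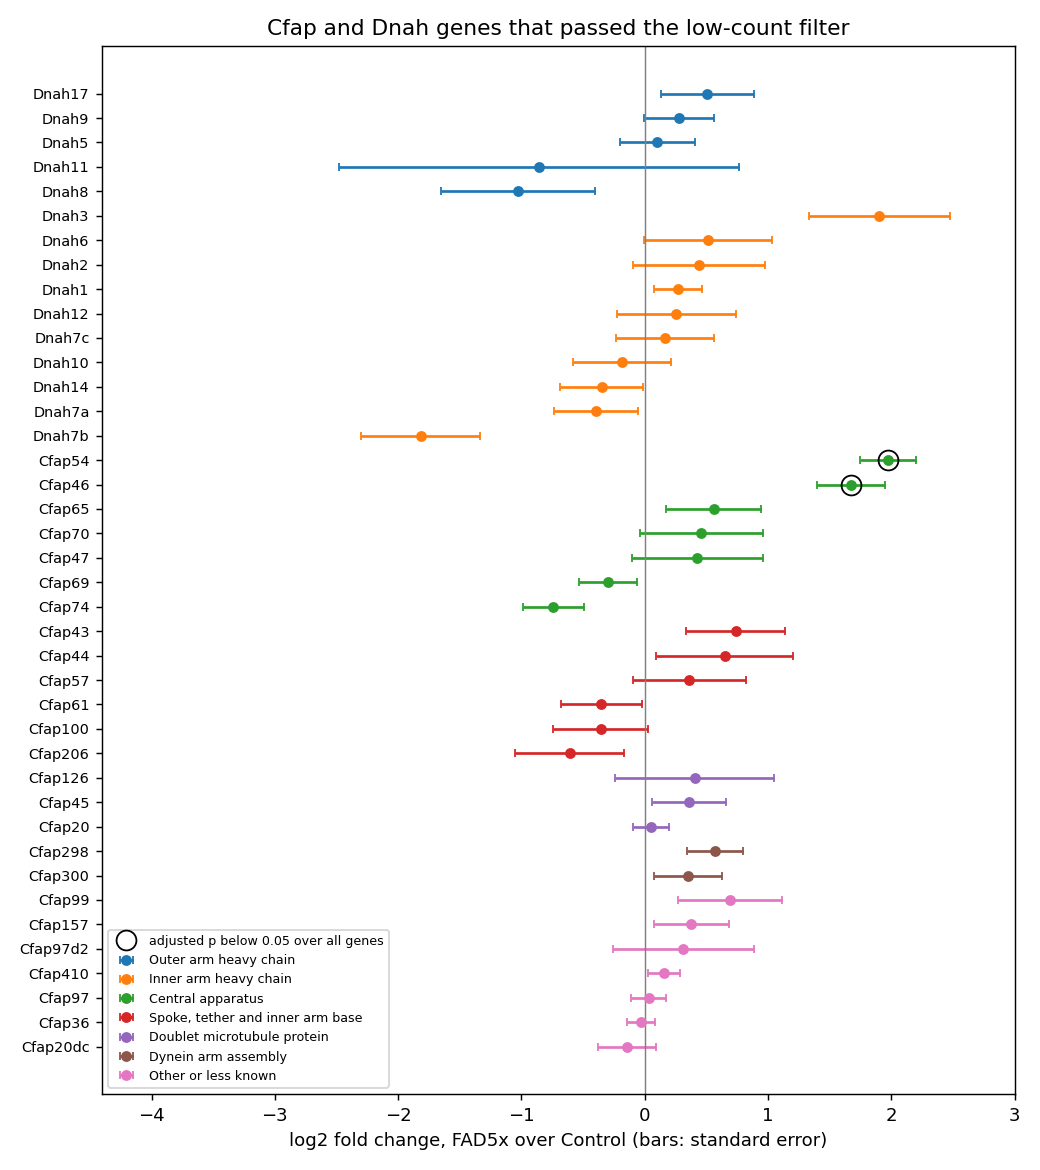
Log2 fold change of FAD5x over Control (x axis) for the 40 Cfap and Dnah genes that passed the low-count filter, coloured by their part in the axoneme, with bars for the standard error of the fit. The 2 circled genes, Cfap54 at 1.97 and Cfap46 at 1.67, had an adjusted p below 0.05 over all tested genes; the bar of Dnah11 is the widest.

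The central apparatus held both called genes. Cfap54 (ENSMUSG00000020014, chromosome 10) had 27.9, 20.5 and 35.3 CPM in FAD5x replicates 1 to 3, against 6.33, 8.43 and 6.54 CPM in Control replicates 1 to 3. Cfap46 (ENSMUSG00000049571, chromosome 7) had 5.81, 10.1 and 8.46 CPM in the FAD5x libraries and 2.20, 2.92 and 2.52 CPM in the Control libraries. For both genes the lowest FAD5x library lay well above the highest Control library, and among FAD5x libraries Cfap54 was highest in replicate 3 and Cfap46 in replicate 2. The fitted log2 fold changes were 1.97 ± 0.23 for Cfap54, or 3.93-fold, and 1.67 ± 0.28 for Cfap46, or 3.18-fold (standard errors of the fit, n = 3 libraries each). The counts behind these values were 424 to 678 per FAD5x library and 115 to 150 per Control library for Cfap54, and 141 to 208 and 40 to 52 for Cfap46. Cfap54 stayed called with any single library left out, FAD5x replicates 1 and 2 included, while Cfap46 was no longer called without Control replicate 1, 2 or 3, at log2 fold changes of 1.58, 1.78 and 1.67. Over all genes the fits without a Control library called 98, 81 and 152, against 537 with all libraries. Neither gene had an overlapping annotated gene with more than 20 counts.

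In the green alga Chlamydomonas the homologues of Cfap46, Cfap54, Cfap74 and Cfap221 together form the C1d projection, which takes part in setting beat frequency. Cfap74 lay in the opposite direction, at 11.7, 6.20 and 11.5 CPM in FAD5x, against 15.7, 15.7 and 17.9 CPM in Control, with no overlap and a log2 fold change of -0.74 ± 0.25, and it was not called. Another gene, 5830444B04Rik, overlaps Cfap74, and reads of the 2 genes cannot be told apart without strand. Cfap221 was barely detected, at 7, 4 and 2 counts in FAD5x, against 7, 3 and 3 counts in Control, and did not enter the fit. Of the 4 genes of the projection, 2 were called higher, 1 lay lower and missed the threshold, and 1 could not be tested. Per kilobase of exon, over all 6 libraries, Cfap74 averaged 1.32 CPM, Cfap54 1.20 CPM, Cfap46 0.578 CPM and Cfap221 0.0748 CPM.

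The other central apparatus genes overlapped between the groups. Cfap69, needed in mice for sperm flagella and also present in olfactory cilia, had 15.5, 20.7 and 31.2 CPM in FAD5x, against 30.1, 26.7 and 26.2 CPM in Control, so that only FAD5x replicates 1 and 2 were below the Control range. Cfap65, which is needed for sperm flagella, had 6.31, 8.33 and 6.01 CPM in FAD5x, against 2.09, 6.24 and 5.70 CPM in Control. Cfap70 and Cfap47 were near 1 CPM or below in most libraries, with log2 fold changes of 0.46 ± 0.50 and 0.42 ± 0.53, no larger than their errors.

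**Figure D2:**
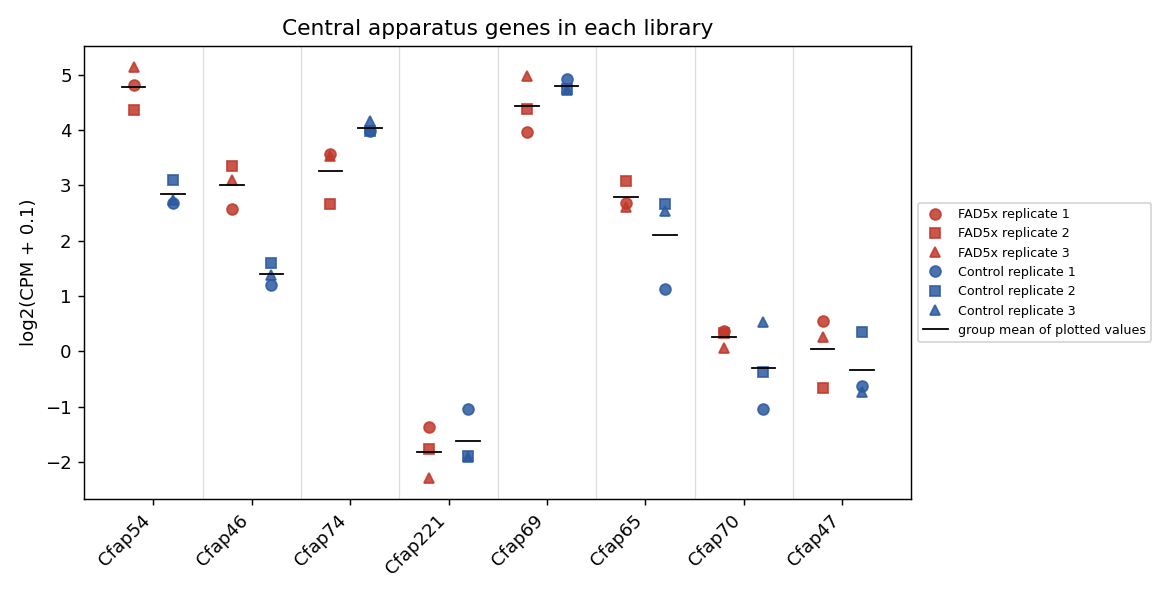
Level of the 8 central apparatus genes of the set as log2(CPM + 0.1) (y axis) in each of the 3 FAD5x libraries (red, left) and 3 Control libraries (blue, right), with black bars for the group means of the plotted values. Cfap54 and Cfap46 separate upwards in FAD5x and Cfap74 downwards, while the libraries of the other 5 genes overlap.

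Among the outer arm heavy chains the libraries differed most for Dnah11 (ENSMUSG00000018581, chromosome 12), a chain of the outer arm that acts in left-right patterning. It had 0.371, 0 and 19.5 CPM in FAD5x replicates 1 to 3, from 9, 0 and 373 counts, against 20.4, 9.61 and 5.65 CPM in Control replicates 1 to 3, from 370, 171 and 101 counts. FAD5x replicates 1 and 2 were almost without Dnah11 RNA, while FAD5x replicate 3 sat at the top of the Control range, so the groups overlapped. The fit gave a log2 fold change of -0.86 ± 1.62. Without FAD5x replicate 3 the log2 fold change was -5.87 and the gene was called lower, and with FAD5x replicates 1 and 2 left out, which leaves 1 FAD5x library, it was 0.71. The sum over all 15 heavy chains was 49.0, 48.0 and 71.5 CPM in FAD5x, against 75.6, 58.0 and 54.1 CPM in Control. Without Dnah11 the sum was 48.6, 48.0 and 52.0 CPM in FAD5x, against 55.2, 48.4 and 48.4 CPM in Control, so the groups overlapped.

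The remaining outer arm chains overlapped between the groups. Dnah5, the chain most often affected in primary ciliary dyskinesia, had 5.28, 3.73 and 4.34 CPM in FAD5x, against 3.08, 3.60 and 5.76 CPM in Control. Dnah9, its partner in respiratory cilia, had 4.04, 4.85 and 3.61 CPM in FAD5x, against 3.30, 2.64 and 4.36 CPM in Control. Dnah17, the chain of sperm flagella, had 2.43, 3.10 and 4.70 CPM in FAD5x, against 3.19, 1.52 and 2.46 CPM in Control. Their log2 fold changes of 0.10, 0.28 and 0.51 were at most 1.5 times their standard errors. Dnah8, another sperm chain, had 0.989, 1.02 and 0.470 CPM in FAD5x, against 3.36, 0.955 and 0.783 CPM in Control. Its log2 fold change of -1.03 ± 0.63 rested on Control replicate 1, and the gene overlaps the far more abundant Glo1.

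**Figure D3:**
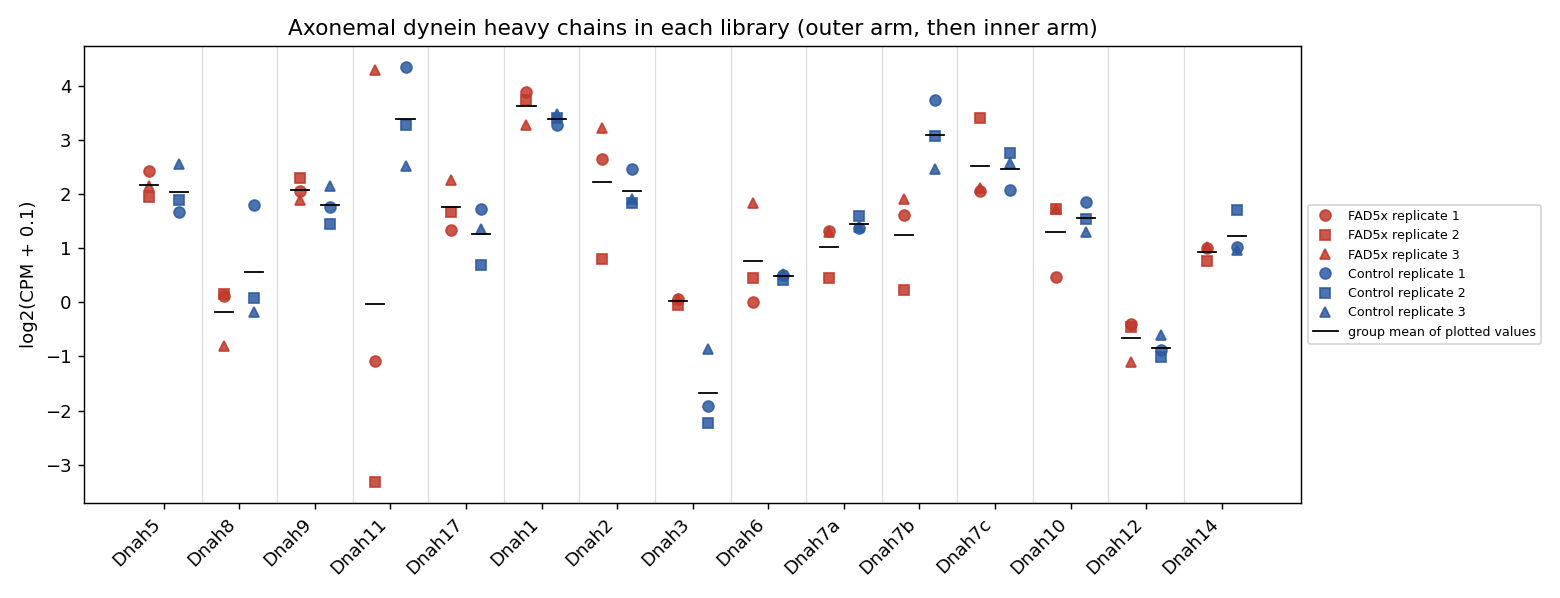
Level of the 15 axonemal dynein heavy chain genes as log2(CPM + 0.1) (y axis) in each of the 3 FAD5x libraries (red, left) and 3 Control libraries (blue, right), outer arm chains first, with black bars for the group means of the plotted values. Dnah11 spans the whole axis in FAD5x, Dnah3 separates upwards and Dnah7b downwards, and most other chains overlap.

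Mouse has 3 copies of the inner arm chain Dnah7 on chromosome 1, and their near identity bears on how their reads were assigned. The longest protein-coding transcripts of Dnah7a, Dnah7b and Dnah7c (GENCODE M21) have 12245, 12314 and 12207 bases and were 96.4% identical in each pairing. Of all 50-base stretches of the Dnah7b transcript, 30.4% occur unchanged in Dnah7a and 38.5% in Dnah7c. The 60 bases below, shown to let the copies be compared base by base, hold 4 positions (capitals) at which the copies differ; the rest is shared by all 3.
Dnah7a: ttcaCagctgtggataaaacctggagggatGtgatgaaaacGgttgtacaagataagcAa
Dnah7b: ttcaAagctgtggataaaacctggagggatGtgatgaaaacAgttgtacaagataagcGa
Dnah7c: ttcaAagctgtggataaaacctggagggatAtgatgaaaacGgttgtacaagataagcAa
How reads with several matches in the genome were counted is not stated in the labels, so the counts of each single copy are uncertain and the sum of the copies is given as well.

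Dnah7b (ENSMUSG00000041144) had 2.97, 1.07 and 3.66 CPM in FAD5x replicates 1 to 3, against 13.3, 8.37 and 5.42 CPM in Control replicates 1 to 3. All FAD5x libraries were below all Control libraries, and within both groups the values spread more than 2-fold. Its log2 fold change was -1.82 ± 0.48, and it was the only gene of the set that DESeq2 called lower. Dnah7a was also lower in every FAD5x library, by a small margin, at 2.39, 1.26 and 2.35 CPM against 2.48, 2.92 and 2.52 CPM in Control (log2 fold change -0.40 ± 0.34). Dnah7c had 4.04, 10.5 and 4.23 CPM in FAD5x, against 4.13, 6.69 and 5.87 CPM in Control, and its highest value came from FAD5x replicate 2, the library with the least Dnah7b.
Dnah7b made up 31.6%, 8.33% and 35.7% of the counts of the 3 copies in FAD5x replicates 1 to 3, against 66.9%, 46.6% and 39.3% in Control replicates 1 to 3. The 3 copies together had 9.40, 12.8 and 10.2 CPM in FAD5x, against 19.9, 18.0 and 13.8 CPM in Control, so that the FAD5x mean was 62.7% of the Control mean and the libraries did not overlap.

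Dnah3 (ENSMUSG00000052273, chromosome 7), a single-headed inner arm chain, had 0.948, 0.872 and 0.940 CPM in FAD5x, against 0.165, 0.112 and 0.447 CPM in Control. The FAD5x libraries lay close together and all above Control, yet the values stand for only 23, 18 and 18 counts in FAD5x, against 3, 2 and 8 counts in Control. Its log2 fold change of 1.90 ± 0.57 was close in size to that of Cfap54 and was not called, and the gene overlaps Lyrm1, which had more counts.

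The other inner arm chains overlapped between the groups. Dnah2, a chain of the double-headed inner arm, had 6.14, 1.65 and 9.20 CPM in FAD5x, against 5.40, 3.48 and 3.63 CPM in Control, with FAD5x replicate 2 lowest of all and FAD5x replicate 3 highest. Dnah10, its partner in that arm, had 1.28, 3.20 and 3.19 CPM in FAD5x, against 3.52, 2.81 and 2.35 CPM in Control. Dnah1, which is needed for sperm flagella, was the most abundant inner arm chain per kilobase, with 14.6, 13.3 and 9.56 CPM in FAD5x, against 9.58, 10.5 and 11.1 CPM in Control. The groups separated for none of these 3 chains. Dnah6 had 0.907, 1.26 and 3.45 CPM in FAD5x, against 1.32, 1.24 and 1.34 CPM in Control, so that only FAD5x replicate 3 stood out. Dnah12 had 0.660, 0.630 and 0.366 CPM in FAD5x, against 0.440, 0.393 and 0.559 CPM in Control. Dnah14 had 1.90, 1.60 and 1.93 CPM in FAD5x, against 1.93, 3.15 and 1.85 CPM in Control. Neither of these last chains moved by more than about its standard error, at log2 fold changes of 0.26 ± 0.48 for Dnah12 and -0.35 ± 0.34 for Dnah14.

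Markers of the olfactory bulb, a region that borders the front of the cortex, followed a library order like that of Dnah11. The list (Tbx21, Eomes, Cdhr1, Doc2g, Th, Sp8 and Omp) was chosen after the values were seen. Summed over the 7 genes, the level was 19.0, 38.4 and 312 CPM in FAD5x replicates 1 to 3, against 667, 344 and 237 CPM in Control replicates 1 to 3. FAD5x replicates 1 and 2 held the least of these markers and the least Dnah11, and Control replicate 1 held the most of both; none of the 7 markers was at 0 in any library. In Control, Dnah7b (13.3, 8.37 and 5.42 CPM) fell in the same order as the markers. Within FAD5x, replicate 3 held the most of both, with far more of the markers than replicate 1 and a similar Dnah7b level. FAD5x replicates 1 and 2 were in opposite order, at 19.0 and 38.4 CPM for the markers and 2.97 and 1.07 CPM for Dnah7b. Immature neuron and progenitor markers (5 genes) summed to 64.0, 39.9 and 101 CPM in FAD5x, against 283, 224 and 134 CPM in Control, with Dcx at 34.3, 20.3 and 75.9 CPM in FAD5x, against 237, 175 and 105 CPM in Control. Within each group Dnah7b had the same library order as Dcx and as this sum. The part of tissue composition in the Dnah11 and Dnah7b values was not tested.

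**Figure D4:**
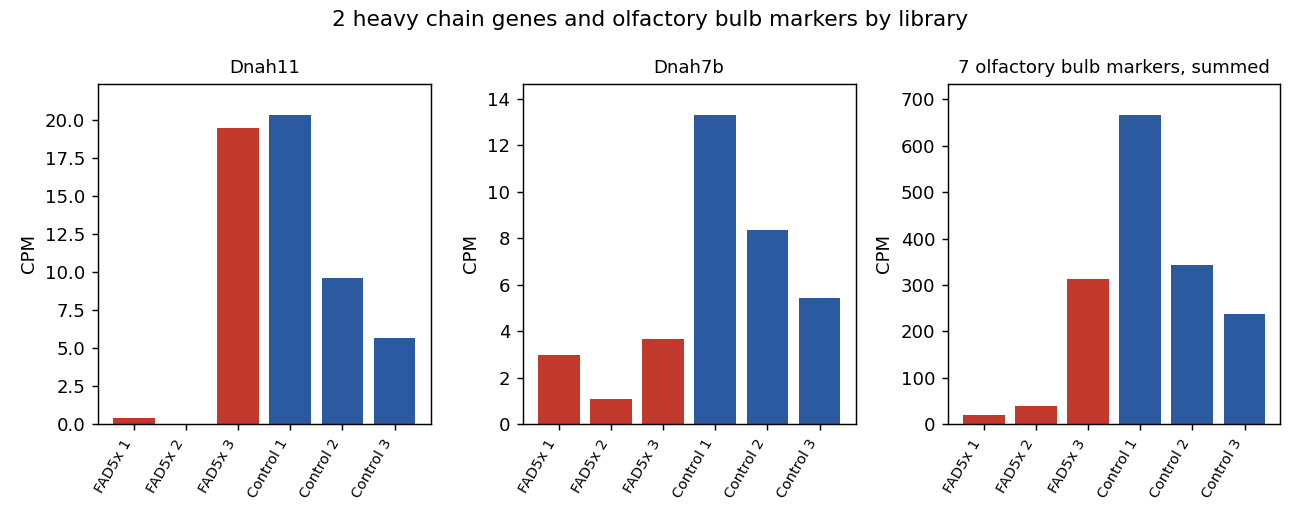
CPM (y axes) of Dnah11, of Dnah7b and of 7 olfactory bulb markers summed, in each FAD5x library (red) and each Control library (blue), 1 bar per library. FAD5x replicates 1 and 2 are near 0 for Dnah11 and at 19.0 and 38.4 CPM for the markers, while FAD5x replicate 3 resembles Control for both but not for Dnah7b.

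Genes for the spokes, the inner arm base and its tether overlapped between the groups. Cfap44, a tether protein of the double-headed inner arm, had 6.18, 1.41 and 8.78 CPM in FAD5x, against 3.58, 3.82 and 3.02 CPM in Control, so that FAD5x replicates 1 and 3 were above every Control library and FAD5x replicate 2 below. Without FAD5x replicate 2 it was called higher at a log2 fold change of 1.11, and with all libraries the value was 0.65 ± 0.56. Cfap43, its partner, had 2.02, 1.41 and 2.82 CPM in FAD5x, against 1.27, 1.57 and 0.894 CPM in Control, again with FAD5x replicate 2 lowest in its group. Cfap57, Cfap61, Cfap100 and Cfap206 had log2 fold changes between -0.61 and 0.36. FAD5x replicate 2 was also the lowest library for Dnah2 and for Cfap126, a doublet protein at 1.36, 0.291 and 1.31 CPM in FAD5x, against 0.495, 1.24 and 0.503 CPM in Control.

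The doublet microtubule and assembly genes with enough counts had log2 fold changes of 0.05 to 0.57. Cfap20, which lies at the inner junction of the doublet, had 28.1, 28.0 and 30.0 CPM in FAD5x, against 30.1, 22.9 and 30.3 CPM in Control (log2 fold change 0.05 ± 0.15, and -0.07 without Control replicate 2). Cfap45, a protein inside the doublet, was above Control in every FAD5x library by a small margin, at 2.39, 2.33 and 3.40 CPM in FAD5x, against 1.87, 2.19 and 2.24 CPM in Control. Cfap298, a dynein arm assembly factor, had 17.9, 31.9 and 19.1 CPM in FAD5x, against 14.6, 16.1 and 15.6 CPM in Control. All FAD5x libraries of Cfap298 were above Control, FAD5x replicate 2 by far the most, and at a log2 fold change of 0.57 ± 0.23 the gene was not called. Cfap300, another assembly factor, had a log2 fold change of 0.35 ± 0.27.

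The remaining Cfap genes have less well known roles. Cfap36, the most abundant gene of the set per kilobase, had 68.8, 75.9 and 76.4 CPM in FAD5x, against 71.4, 75.5 and 79.4 CPM in Control, a log2 fold change of -0.03 ± 0.11. Cfap97 and Cfap410 were likewise close between the groups, with log2 fold changes of 0.03 ± 0.14 and 0.16 ± 0.13. Cfap410 did not overlap between groups, at 25.5, 28.5 and 24.0 CPM in FAD5x, against 22.5, 23.6 and 23.9 CPM in Control, with a gap far smaller than the spread within FAD5x. Cfap99, near 1 CPM, also did not overlap, with a log2 fold change of 0.69 ± 0.42. Per kilobase of exon and averaged over all 6 libraries, levels ran from 27.2 CPM for Cfap36, 12.1 CPM for Cfap298 and 6.34 CPM for Cfap20 down to 0.0471 CPM for Dnah8, 0.0425 CPM for Cfap77, 0.0423 CPM for Dnah12 and 0.0406 CPM for Dnah3. All heavy chains were below 1 CPM per kilobase. The exon length of Dnah7b includes retained introns, which lowers its value per kilobase. At 26820 bases, the exon length of Dnah8 was greater than the 19980 bases of Dnah7b, which likewise lowers the Dnah8 value.

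The 9 genes that did not pass the filter were Cfap52, Cfap53, Cfap58, Cfap73, Cfap77, Cfap97d1, Cfap161, Cfap221 and Cfap299, with at most 15 counts in any library. Cfap53, a doublet protein that also acts in left-right patterning, had 4, 13 and 11 counts in FAD5x, against 4, 2 and 3 counts in Control. Cfap52, another doublet protein, had 15, 1 and 12 counts in FAD5x, against 9, 7 and 8 counts in Control, with FAD5x replicate 2 lowest. Differences between groups were not detectable for these genes at this depth. Of the 49 genes, 17 overlap another annotated gene with more than 20 counts, and the labels do not give the strand setting of the counting. These are Dnah3, Dnah8, Dnah9, Dnah11, Dnah14, Dnah17, Cfap43, Cfap45, Cfap52, Cfap61, Cfap73, Cfap74, Cfap77, Cfap97, Cfap97d1, Cfap100 and Cfap157. Over all libraries, Snx25 at Cfap97 had 4631 counts, Pgs1 at Dnah17 had 7397 and Cdca7l at Dnah11 had 360. Any share of their reads in the member counts was not tested.

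Other genes of the axoneme were described from 6 lists with 101 measured genes, of which 77 passed the filter. Zmynd10, a dynein arm assembly factor, rose: it had 4.29, 3.83 and 4.44 CPM in FAD5x, against 1.76, 0.899 and 1.01 CPM in Control, a log2 fold change of 1.77 ± 0.34 (adjusted p = 0.0315, edgeR quasi-likelihood). It was the only one of the 77 called higher, or 1.3%, where 1.76% of all tested genes were, and 0 were called lower, where 1.39% of all tested genes were. At an unadjusted p below 0.05 there were 8 higher and 3 lower, beside 11.2% and 10.1% of all tested genes. DESeq2 called 3 higher and 2 lower, beside 4.47% and 4.23%, and limma-voom 1 higher and 0 lower, beside 1.45% and 1.32%. Zmynd10 lost its call when any library except FAD5x replicate 2 was left out, at adjusted p = 0.0544 to 0.122, although its log2 fold change stayed at 1.59 to 2.13. The fits in which it lost its call gave 81 to 597 called genes in all, against 537 with all libraries. The median log2 fold change of the 77 genes was 0.08.

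For the single lists that follow, 1.76% of all tested genes were called higher and 1.39% lower by edgeR. The shares were 11.2% and 10.1% at an unadjusted p below 0.05, 4.47% and 4.23% by DESeq2, and 1.45% and 1.32% by limma-voom. In lists this short, 0 calls do not show that levels were equal. Among the dynein intermediate, light and docking chains (12 tested, 0 called, 1 higher and 1 lower at an unadjusted p below 0.05, 0 by DESeq2 or limma-voom), those with the highest CPM were Dnal1 and Dnal4. Dnal1, a light chain of the outer arm, had 130.3, 129 and 109 CPM in FAD5x, against 133, 173 and 156 CPM in Control. Dnal4 had 32.0, 29.2 and 35.3 CPM in FAD5x, against 26.4, 24.0 and 23.6 CPM in Control. The groups did not overlap for either, in opposite directions, and both missed the threshold (adjusted p = 0.243 and 0.146, edgeR). Among the radial spoke and nexin link genes (16 tested, 0 called by edgeR or limma-voom, 1 higher at an unadjusted p below 0.05, 1 higher by DESeq2), Rsph3a and Rsph3b, which are 95.2% identical, had log2 fold changes of 0.08 and 0.13.

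In the central apparatus list (11 tested, 0 called by edgeR or limma-voom, 1 higher and 1 lower at an unadjusted p below 0.05, 1 lower by DESeq2), the genes with the highest CPM, Spef1 and Stk36, had log2 fold changes of -0.26 ± 0.19 and 0.17 ± 0.24. Hydin, a very large central apparatus protein, was named after its values were seen, with 0.824, 0.485 and 1.72 CPM in FAD5x, against 3.47, 3.76 and 2.35 CPM in Control. All its FAD5x libraries were below all Control libraries, in the direction opposite to Cfap54 and Cfap46 (log2 fold change -1.66 ± 0.47, adjusted p = 0.0993, edgeR). It was called lower without FAD5x replicate 3, at a log2 fold change of -2.26. Among tektins and proteins inside the microtubules (13 tested, 0 called by edgeR or limma-voom, 2 higher and 1 lower at an unadjusted p below 0.05, 1 in each direction by DESeq2), Nme7 had the highest CPM, with a log2 fold change of -0.18 ± 0.15. Stoml3, a membrane protein of olfactory cilia and likewise named after its values were seen, had 0.289, 1.55 and 1.99 CPM in FAD5x, against 16.5, 10.7 and 4.86 CPM in Control. Its log2 fold change was -3.08 ± 0.67 (adjusted p = 0.0562, edgeR), and it was called lower without FAD5x replicate 3, at -3.56.

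Regulators of multiciliated cells did not differ beyond the threshold (15 measured, 11 tested, 0 called by edgeR, DESeq2 or limma-voom, and 0 at an unadjusted p below 0.05). Rfx3, a factor that binds promoters of cilium genes, had 58.5, 25.1 and 51.3 CPM in FAD5x, against 49.4, 69.1 and 66.6 CPM in Control. Tfdp1, a partner of E2f factors, had 38.7, 43.0 and 38.8 CPM in FAD5x, against 44.0, 48.9 and 46.2 CPM in Control. Foxj1, the main activator of motile cilium genes, had 4.58, 1.84 and 5.54 CPM in FAD5x, against 6.61, 5.11 and 5.42 CPM in Control. The 4 genes with too few counts to be tested were Mcidas, Myb, Deup1 and Cdc20b. Mcidas, a regulator that starts the multiciliated cell programme, had 18, 11 and 12 counts in FAD5x, against 3, 3 and 1 counts in Control, so that all FAD5x libraries were above all Control libraries. FAD5x replicate 2 was lowest for Rfx3 and Foxj1, as for Dnah2, Cfap44 and Cfap126.

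**Figure D5:**
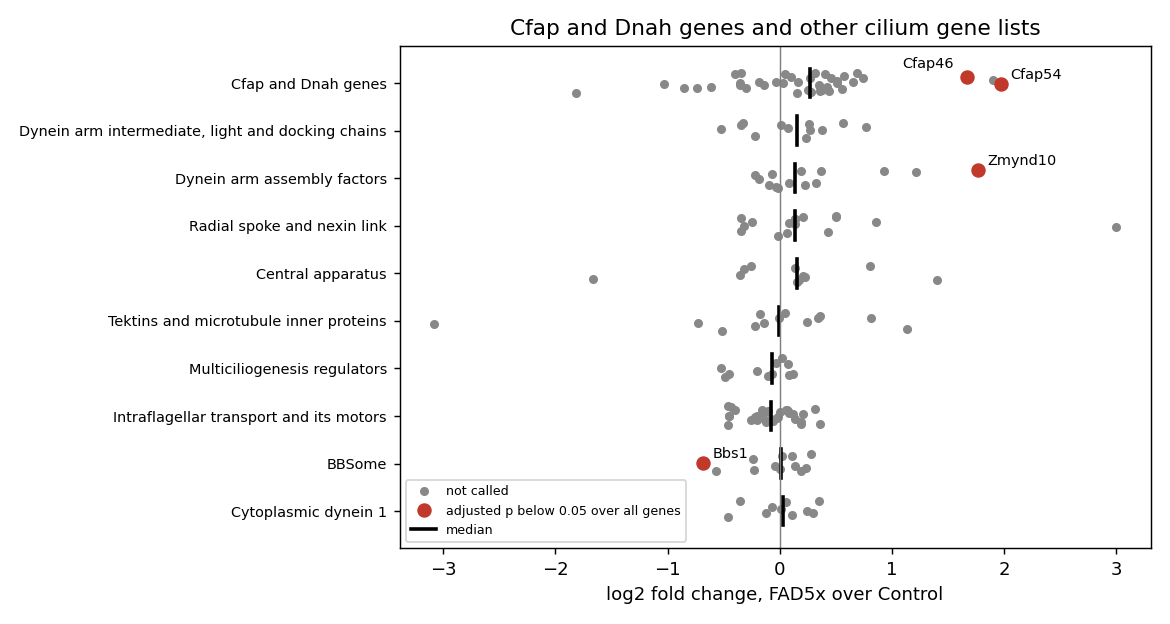
Log2 fold change of FAD5x over Control (x axis) for each tested gene of the Cfap and Dnah set and of 9 other cilium and dynein gene lists (1 point per gene), with vertical bars for list medians and large red points for genes with an adjusted p below 0.05. The called genes are Cfap54, Cfap46 and Zmynd10 on the higher side and Bbs1 on the lower side.

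Ciliary transport genes, which primary cilia also use, were described from 2 lists with 43 tested genes. Bbs1, a subunit of the BBSome that carries membrane proteins in cilia, fell: it had 36.9, 36.0 and 37.3 CPM in FAD5x, against 62.0, 57.6 and 57.3 CPM in Control, a log2 fold change of -0.68 ± 0.11 (adjusted p = 0.0179, edgeR). The libraries of each group lay within a few CPM of each other. Bbs1 was the only 1 of the 43 called lower, or 2.33%, where 1.39% of all tested genes were. Higher calls numbered 0, where 1.76% of all tested genes were called higher. The call was lost without FAD5x replicate 1 or any 1 Control library, at adjusted p = 0.0564 to 0.0919 and log2 fold changes of -0.70 to -0.64. Those fits gave 81 to 204 called genes in all, against 537 with all libraries. Of the 31 intraflagellar transport genes 0 were called by edgeR or limma-voom, 0 were higher and 6 lower at an unadjusted p below 0.05, where 10.1% of all tested genes were lower, and 2 were lower by DESeq2, where 4.23% were. The highest in CPM were Kifap3 and Kif3a, subunits of the kinesin that drives transport to the tip. Kif3a had 98.1, 94.0 and 83.3 CPM in FAD5x, against 121, 126 and 132 CPM in Control, with no overlap (log2 fold change -0.46 ± 0.12, adjusted p = 0.0816, edgeR). Cytoplasmic dynein 1, the related motor of the cell body and axon, had 0 of 10 genes called by edgeR, DESeq2 or limma-voom and 0 at an unadjusted p below 0.05, with a log2 fold change of -0.12 ± 0.15 for its heavy chain Dync1h1, which was 0.12 with the length trend taken out.

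Of 9 markers of ependymal cells, 3 passed the filter (Foxj1, Rarres2 and Dynlrb2) and the other 6 had few or no counts in most libraries. Rarres2, a secreted protein gene, had 93, 33 and 45 counts in FAD5x, against 28, 62 and 23 counts in Control. Among the untested ones Fam216b had 4, 0 and 28 counts in FAD5x, against 3, 0 and 3 in Control. Mia had 0 counts in every library, Tmem212 had 2, 0 and 2 counts in FAD5x, against 0, 0 and 0 in Control, and Ccdc153 had 9, 0 and 9 counts in FAD5x, against 0, 2 and 1 in Control. Summed over the 9 genes, the level was 9.32, 3.97 and 11.2 CPM in FAD5x, against 9.14, 8.99 and 7.66 CPM in Control, of which Foxj1 made up the largest portion in each library. The sum was lowest in FAD5x replicate 2, and the groups overlapped. Choroid plexus markers (9 genes) summed to 12.9, 5.72 and 11.7 CPM in FAD5x, against 20.9, 16.6 and 11.7 CPM in Control. Ttr was at 0.0969 to 1.83 CPM in FAD5x, against 0.440 to 3.02 CPM in Control. Aqp1 made up the largest portion of the choroid plexus sum in every library except FAD5x replicate 1, where Clic6 did at 6.72 CPM. Aqp1 had 0.495, 3.34 and 6.165 CPM in FAD5x, against 16.2, 7.585 and 4.53 CPM in Control. Male germ cell markers (5 genes), sought because sperm flagella use the same proteins, summed to at most 0.105 CPM in FAD5x, against 0.225 CPM in Control.

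Other cell type markers that differed by library are given as summed CPM beside these results. Oligodendrocyte markers (6 genes) summed to 7393, 3802 and 4971 CPM in FAD5x, against 2719, 3132 and 3978 CPM in Control, and Mobp, a myelin protein gene, rose (log2 fold change 1.09 ± 0.24, adjusted p = 0.0474, edgeR). Leptomeningeal markers (6 genes) summed to 39.8, 19.5 and 90.0 CPM in FAD5x, against 171, 303 and 108 CPM in Control, and Col3a1, a fibrillar collagen gene, fell (log2 fold change -3.37 ± 0.32, adjusted p = 0.00178, edgeR). Microglial markers (5 genes) summed to 615, 273 and 391 CPM in FAD5x, against 219 to 333 CPM in Control, and astrocyte markers (6 genes) to 4066 to 6786 CPM in FAD5x, against 4435 to 6360 CPM in Control. Slc1a2, a glutamate transporter gene, made up the largest portion of the astrocyte sum in each library, and Gfap, the filament gene of reactive astrocytes, had 1508, 129 and 914 CPM in FAD5x, against 193, 169 and 119 CPM in Control. Gfap was thus high in FAD5x replicates 1 and 3 only, with a log2 fold change of 2.41 ± 0.81, and was not called (adjusted p = 0.168, edgeR). Cfap54 was highest in FAD5x replicate 3, while the oligodendrocyte and microglial sums were highest in FAD5x replicate 1. Within FAD5x, Cfap54, Gfap and the oligodendrocyte, microglial and ependymal sums were lowest in replicate 2, and the astrocyte sum in replicate 3. The ependymal sum, at 9.32, 3.97 and 11.2 CPM in FAD5x replicates 1 to 3, had the Cfap54 order and overlapped Control. Cfap46 was highest in FAD5x replicate 2. The part of cell composition in the Cfap54 and Cfap46 values was not tested.

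Promoters of the set were examined for the X-box, the motif that RFX factors such as Rfx3 bind. RefSeq windows (GRCm38.p6) of 250 bases before to 50 after the start site were available for 41 of the 49 genes, Cfap46 among them, and were searched on both strands. The palindromic motif GTTNCCNNGGNAAC was present for 2 of the 41 genes (4.88%) and for 0.529% of 27025 genes with a window. Its shorter core GTTGCC, which occurs within some matches of the long motif, was present for 15 of the 41 genes (36.6%) and for 14.1% of all genes with a window. The sites below are shown because they carry the long motif, or because they belong to C1d and Dnah7 genes described above; capitals mark the motif, read as GGCAAC where it lies on the other strand.
Cfap298, long motif, chr16:90935016-90935045, minus strand: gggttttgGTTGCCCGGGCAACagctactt
Cfap20dc, long motif, chr14:8666371-8666400, minus strand: gcccctcaGTTGCCTGGGCAACggctcagc
Cfap74, core, chr4:155409062-155409091, plus strand: gagaatcgtctgGGCAACagtcagctttga
Cfap74, other core, chr4:155409191-155409220, plus strand: aagcagccttccGTTGCCatggagctgcgc
Dnah7a, core, chr1:53706967-53706996, minus strand: tcgctcctcacaGTTGCCtgccaccctctg
Dnah7b, core, chr1:46066678-46066707, plus strand: tacaggagcacaGTTGCCacccacccttaa
Dnah7c, core, chr1:46425287-46425316, plus strand: tcactcctcagaGTTGCCttccaccctctg
All 3 Dnah7 copies hold the core. For Cfap46 the core lies 9 to 4 bases before the start site, at the end of the 250 bases upstream (chr7:139683816-139684065, minus strand), which are printed whole because it was the called gene of the set with a window.
Cfap46: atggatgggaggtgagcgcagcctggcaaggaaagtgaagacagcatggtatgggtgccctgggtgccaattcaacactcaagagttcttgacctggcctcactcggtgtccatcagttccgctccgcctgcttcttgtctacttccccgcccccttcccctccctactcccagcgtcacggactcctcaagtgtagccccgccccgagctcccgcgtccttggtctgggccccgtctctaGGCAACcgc
Genes with the core lay in both directions: Cfap46 was called higher, Cfap298 was higher in every FAD5x library and Dnah7b and Cfap74 lower in every FAD5x library. A match in these letters is not a site shown to be bound.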

How the data were processed

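Total RNA from flash frozen cortex was extracted with TRIzol and a column kit, per the labels' protocols, and the labels leave the library kit blank. The submitters' processing notes name build GRCm39, the aligner STAR 2.7.11b, the counter featureCounts and, besides these, cutadapt, limma and edgeR 3.38.4, without order or parameters. The deposited table holds raw counts for each Ensembl gene, 1 column per library, in 47729 lines, of which 1 was not numeric and was left out. Depth was 17363946 to 24137936 counts per library, which limits precision for genes with few counts.

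Groups were taken from the treatment label. Symbols were matched by identifier to GENCODE M21 (47309 matched, 419 not) and to RefSeq, both on GRCm38, so no coordinate of the counted genes is given and RefSeq promoters have their own build. The members and lists were chosen with earlier results of these data known, and the roles assigned to members come from general knowledge. Named genes are the called members, every Dnah gene, the 5 most abundant tested Cfap genes, Cfap genes with a log2 fold change of at least 1, and, per cilium list, called genes or otherwise the 2 most abundant, and the first 2 genes of each marker list, of which only some are printed. A gene that this rule takes is not reported here. Other named genes (among them Cfap74, Cfap44, Cfap65, Hydin, Stoml3, Foxj1, Mcidas, Gfap and Dcx) were chosen after their values were seen. Of 240 list entries 5 were not matched.

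Counts were fitted with edgeR 4.0.16 in R 4.3.3 (TMM scaling, filterByExpr on the groups, robust quasi-likelihood F-test, two-sided, Benjamini-Hochberg over 17074 genes, calls below 0.05). The biological coefficient of variation was 23.3%. CPM values use TMM-scaled library sizes, and levels per kilobase use the union of GENCODE exons. Replicates of a group differed by 20.0 to 62.8 chi-square units per degree of freedom, more than sampling noise, and each was counted as a sample; this does not show that they came from separate animals. Alternatives were DESeq2 1.42.0, limma-voom (limma 3.58.1), other scalings, no filter, protein-coding genes only, a length trend, a replicate block, a threshold of 0.1 and each library left out. Those added after the data were seen were GENCODE symbols only and FAD5x replicates 1 and 2 left out together. The steps were tested on simulated data of 17074 genes, and 0 were called where no difference was put in. With differences put into some genes above 1 CPM, 52% of 2-fold and 89% of 4-fold changes were recovered, beside 17 false calls.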

Additional observations from a re-analysis of the deposited data

How the results depend on the processing

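Cfap54 and Cfap46 stayed called higher under both other scalings, without the length trend, with protein-coding genes only and with DESeq2 or limma-voom. Leaving out 1 library gave 1 to 3 of the set called higher and 0 to 1 lower, 0 to 2 other axoneme genes higher and 0 to 2 lower, 0 to 1 ciliary transport genes, and a median log2 fold change of the set of 0.15 to 0.26. Each such fit rests on 5 libraries. Without FAD5x replicate 1, 2 or 3, 204, 989 and 597 genes were called in all. Without Control replicate 1, 2 or 3 the totals were 98, 81 and 152, against 537 with all libraries. Replicate numbers did not pair the libraries (deviation correlations -0.04, -0.09 and -0.31 for numbers 1, 2 and 3). With a replicate block 0 genes of the set, 0 other axoneme genes higher and 0 transport genes were called, the median was 0.21, and 72 genes were called in all, against 537 without the block. DESeq2 also called 1 gene of the set lower (Dnah7b), 3 other axoneme genes higher and 2 lower, and 3 transport genes, out of 1485 in all. A threshold of 0.1 gave the same numbers, 1, 3, 2 and 3. Without the low-count filter 3 other axoneme genes were higher and 1 lower, the median of the set was 0.16, and 1063 genes were called. The median was 0.18 by limma-voom and 0.33 with the length trend taken out. Without FAD5x replicates 1 and 2 together the median of the set was 0.23. This fit holds 1 FAD5x library, which is assumed to vary like Control, so its calls are not given. Of the 40 tested genes of the set, 27 had the same sign under all 15 alternatives and 13 did not. With 1 library left out, values of both signs were found for Dnah2 (-0.089 to 0.88), Dnah5 (-0.070 to 0.42), Dnah6 (-0.26 to 0.85), Dnah7c (-0.42 to 0.41), Dnah10 (-0.38 to 0.14), Cfap20 (-0.075 to 0.12), Cfap20dc (-0.29 to 0.052), Cfap36 (-0.070 to 0.014), Cfap97 (-0.019 to 0.14) and Cfap97d2 (-0.20 to 0.73). Dnah10 was at 0.085 with the length trend taken out. Dnah1 (-0.12), Dnah11 (0.71) and Cfap69 (0.17) turned only without FAD5x replicates 1 and 2 together. Among other named genes, signs turned for Rsph3a (-0.0092 with the length trend taken out, -0.12 without FAD5x replicates 1 and 2, -0.066 to 0.17 with 1 library left out), Rsph3b and Dynll2 (-0.075 and -0.052 without FAD5x replicates 1 and 2), Kifap3 (-0.31 to 0.044 with 1 library left out) and Dync1h1 (0.12 with the length trend taken out). The cause was not tested. Of 59 named genes under 15 alternatives, 824 values kept direction and side of the threshold. Low counts limit the tested genes near or below 1 CPM, and kept 9 genes of the set out of the fit.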
